A study of Homo sapiens with 14 samples.

Results

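Older LINE-1 copies are the inserted elements of the L1 family that do not belong to L1HS or to an L1PA subfamily, and only RNA made in the element's own direction (sense RNA) is described here. Members were taken from tables of transposable element (TE) counts by family, subfamily name and strand alone, with no use of their levels. They came to 96515 of the 579614 TE copies that had sense counts in at least 1 of 14 libraries, and they fell into 114 subfamilies. The younger L1HS and L1PA elements came to 23779 copies. The libraries were stranded, polyadenylated RNA-seq of A375, an established human melanoma cell line. In the bulk design, cells were transiently transfected with a Cas9 vector and selected with antibiotic. The bulk control group (n = 3) received the vector without a guide and is labelled wild type for ZC3H18 (Z18), and the bulk CRISPR group (n = 3) is labelled as a ZC3H18 knockout. In the clonal design, lines grown from single cells by limiting dilution after the same kind of transfection and selection were labelled ZC3H18 wild type (WT, n = 2), heterozygous loss of function (-/+, n = 3) or heterozygous for a truncating mutation (trunc/+, n = 3). Both designs limit what a group can stand for. The bulk CRISPR cells were an edited pool, so the share of edited cells and the amount of RNA per cell cannot be told apart, and each clonal library was a line of its own, so genotype and clone vary together. By the study's methods, 1 trunc/+ clone was made by homology-directed repair and the other two carried truncating mutations of their own.

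LINE-1 elements copy themselves through an RNA intermediate, and the human genome still carries the remains of many successive LINE-1 generations. L1M elements spread in early mammals and L1P elements in primates, while HAL1 is an ancient relative that codes for the first LINE-1 protein but not for the reverse transcriptase. Almost all of these old copies are truncated and mutated beyond mobility, so their sequence enters RNA mostly as part of host transcripts: in introns, in 3′ UTRs, in noncoding RNAs or in transcripts that start between genes. ZC3H18 is a nuclear protein that links capped RNA to the RNA exosome, which degrades many such transcripts. The comparisons ask how much sense RNA of older LINE-1 copies was present when ZC3H18 was edited, lost on 1 allele or truncated on 1 allele.

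The sequences of 3 copies show what the counts came from. Copies are given on hg38 by the strand of the element, 5′ to 3′, with every AATAAA, the usual polyadenylation hexamer, in capitals. The first is the copy of highest mean level, an L1M4c fragment inside the noncoding RNA MALAT1 (chr11:65499662-65499925, plus strand, whole copy of 264 bases). The second is a stretch annotated as L1M4c within a coding exon of HSP90AA1, a cytosolic heat shock protein (chr14:102083056-102083143, minus strand, whole copy of 88 bases). That it derives from a LINE-1 insertion rests on the repeat annotation alone and was not tested. The third is the last 150 bases of a copy with one of the smallest unadjusted p-values in the bulk comparison, an L1ME3A copy in an intron of LINC01705 (chr1:222046754-222046903, minus strand).
L1M4c in MALAT1: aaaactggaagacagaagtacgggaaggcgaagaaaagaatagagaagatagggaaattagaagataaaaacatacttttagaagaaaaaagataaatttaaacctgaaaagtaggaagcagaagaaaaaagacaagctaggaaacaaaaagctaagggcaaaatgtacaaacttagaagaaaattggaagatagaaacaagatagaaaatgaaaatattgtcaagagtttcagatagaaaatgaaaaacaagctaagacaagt
L1M4c in HSP90AA1: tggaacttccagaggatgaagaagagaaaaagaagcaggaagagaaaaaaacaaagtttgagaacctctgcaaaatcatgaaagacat
L1ME3A in LINC01705: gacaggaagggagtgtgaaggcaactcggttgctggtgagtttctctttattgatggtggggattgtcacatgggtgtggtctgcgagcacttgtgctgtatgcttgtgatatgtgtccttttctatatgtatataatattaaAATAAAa
The AATAAA of the L1ME3A copy ended 1 base before its 3′ end. Neither the MALAT1 nor the HSP90AA1 fragment held these letters. Searched on the element's own strand only, AATAAA occurred in the last 100 bases of 23.5% of 92451 older copies at least that long. The share was 51.4% of young L1 copies and 17.8% of all 552598 TE copies of that length. Among older copies it ran from 18.4% for HAL1 to 30.05% (n = 6669) for L1P. A match is a match of letters and not a mapped polyadenylation site.

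Depth set the limits for single copies. Libraries held 15615675 to 33018360 aligned fragments, so 1 CPM (1 count per 1000000 aligned fragments) stood for 15.6 to 33.0 counts. Most members were close to silent: 47.0% of them (45374 copies) had counts in only 1 library, 1428 had counts in all 14, and 88.9% never reached 10 estimated counts in any library. Between 11682 and 25263 members had counts in a given library, the fewest in bulk control 3. Uniquely placed fragments made up 86.5% to 92.6% of older LINE-1 counts, against 74.7% to 86.0% for young L1, so older copies depended less on the sharing out of multi-mapped reads. ZC3H18 itself stood at 38.1, 13.9 and 48.7 FPKM (fragments per kilobase of transcript, scaled to depth) in the bulk controls and at 10.4, 11.9 and 12.8 in bulk CRISPR, at 23.5 and 21.97 in WT, at 16.2, 17.1 and 16.1 in -/+ and at 14.3, 13.98 and 8.70 in trunc/+. Every edited library was below its controls, and bulk control 2 lay closest to its edited group. As a check of the melanoma label, SOX10 was present in all libraries at 10.8 to 212 FPKM, while MLANA and TYR were listed at 0 throughout. The melanocyte list summed to 17.7 to 477 FPKM, with 4 of its 9 genes above 1 FPKM in any library, and S100B (0.295 to 85.4 FPKM) and S100A1 (1.51 to 167 FPKM) differed widely between clones of the same genotype. The epithelial list reached a summed 4.81 to 24.1 FPKM (2 of its 5 genes above 1 FPKM in any library), the fibroblast list 2.23 to 10.6 (3 of 6) and the haematopoietic list 0 to 0.416 (0 of 4).

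Bulk control 3 stood apart on older LINE-1 RNA. Its sense to antisense ratio over the members was 0.459, against 0.952 to 1.23 in the other 13 libraries. Over intergenic copies the ratio was 0.331, against 1.10 to 1.64 elsewhere. Of the counts on members within genes, 84.6% lay on the strand of the gene, compared with 90.4% in bulk control 2 and 92.0% to 93.6% in the remaining libraries. Older LINE-1 made up 4.43% of its sense TE counts, 8.65% in bulk control 2 and 11.3% to 16.1% in the others. What part this library's strand balance plays in the bulk difference was not tested.

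Older LINE-1 sense RNA was more abundant in bulk CRISPR than in bulk control libraries. Its summed level was 5295, 4823 and 2902 CPM in the 3 controls and 7485, 6217 and 5666 CPM in the 3 edited libraries. All edited libraries lay above all controls, with bulk control 3 far below the rest. The means were 4340 ± 1268 and 6456 ± 933 CPM (SD, n = 3 each), a log2 difference of 0.61 (two-sided exact permutation test, p = 0.1, adjusted p = 0.2 over 4 comparisons). With 3 libraries against 3, 0.1 is the smallest p this test can give. Without bulk control 3 the difference was 0.34 and the groups still did not overlap. Scaling libraries by TMM or by the median of ratios over TE copies lowered the bulk log2 difference of the sum by 0.23, which left 0.38. Sums over parts of the members shift equally, and ratios within a library do not shift. The fits of subfamilies and single copies moved by other amounts. The replicates are separate samples by label, and p-values measure the spread between these libraries.

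**Figure D1:**
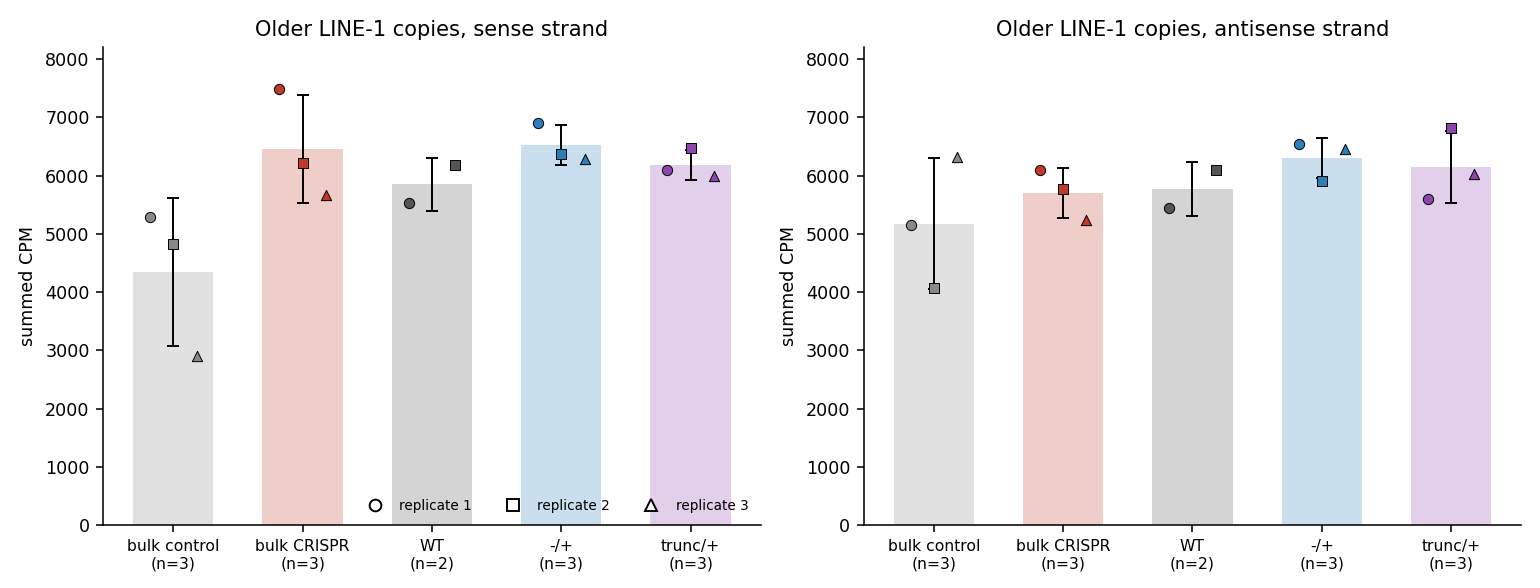
Summed CPM of all older LINE-1 copies in each library (points, shape by replicate number) with the group mean (bar) and SD (error bar), sense RNA on the left and antisense RNA on the right. Sense RNA ran from 2902 CPM in bulk control 3 to 7485 in bulk CRISPR 1, and antisense RNA of bulk control 3, at 6317 CPM, was above both other bulk controls.

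The antisense RNA over the same copies did not separate the bulk groups while bulk control 3 was included. It summed to 5146, 4068 and 6317 CPM in the controls and to 6100, 5769 and 5246 CPM in the edited libraries. Apart from bulk control 3, the controls lay below every edited library in antisense RNA too. The sense to antisense ratio was 1.03, 1.19 and 0.459 against 1.23, 1.08 and 1.08, a log2 difference of 0.45 (exact permutation p = 0.4, adjusted p = 1.0). Without bulk control 3 that difference was 0.028, so the ratio rested on this library.

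The ratios of older LINE-1 to young L1 and to other TEs overlapped between the bulk groups. With so few libraries, overlap does not show that older LINE-1 moved as these others did. Young L1 stood at 1904, 1201 and 898 CPM in the controls and at 2432, 2488 and 2195 CPM in the edited libraries. The ratio of older to young L1 was 2.78, 4.02 and 3.23 in controls and 3.08, 2.50 and 2.58 in bulk CRISPR. These groups overlapped, with a log2 difference of −0.29 (exact permutation p = 0.2, adjusted p = 0.8). Older LINE-1 as a percentage of all sense TE counts was 12.5, 8.65 and 4.43 in controls and 14.5, 12.0 and 11.3 in bulk CRISPR. Bulk control 1 lay inside the edited range. As a ratio to all other sense TE counts, the log2 difference was 0.75 (exact permutation p = 0.3, adjusted p = 0.5), and 0.31 without bulk control 3.

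Most members lay in gene introns, while the few in exons carried a similar share of the counts. By GENCODE 44 annotation, 4621 copies (4.79%) overlapped an exon on their own strand and carried 38.8% of the counts on average. The 49163 intronic copies (50.9%) on the strand of their gene carried 36.7%, the 26884 intergenic copies 17.0% and the 15847 copies in genes on the opposite strand 7.46%. By group, the mean exonic share was above the intronic one in bulk control (40.9% and 32.4%), bulk CRISPR (40.4% and 35.6%) and WT (38.7% and 37.7%) and below it in -/+ (36.7% and 39.2%) and trunc/+ (37.3% and 38.9%). Copies in the 3′ UTR of a canonical transcript were only 995 in number, 1.03% of members, and held 20.9% of the counts. The 10 highest copies held 6.45% to 13.5% of a library's sum and the 1000 highest 38.9% to 52.2%.

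All 4 positions were higher in bulk CRISPR. Intronic copies summed to 1779, 1500 and 942 CPM in controls and 2656, 2270 and 1971 CPM in edited libraries, the largest of the 4 log2 differences at 0.75. Exonic copies summed to 2309, 2162 and 996 CPM against 3007, 2459 and 2345 CPM, a difference of 0.60. Intergenic copies summed to 846, 777 and 603 CPM against 1261, 1013 and 924 CPM, a difference of 0.52. In each of these 3 classes the edited libraries were all above the controls and bulk control 3 was lowest. Copies within genes of the opposite strand differed in their spread: the controls stood close together at 361, 384 and 360 CPM, and the edited libraries at 561, 475 and 425 CPM, a difference of 0.40. Each class gave an exact permutation p of 0.1, the smallest possible (adjusted p = 0.2 for intergenic copies and 0.4 for the other 3). Without bulk control 3 the differences were 0.48 for introns, 0.21 for exons, 0.38 for intergenic copies and 0.38 for opposite-strand copies, so the opposite-strand value changed least. That does not make it free of this library's strand balance. Opposite-strand copies made up 6.39% to 12.4% of a library's sum, the most in bulk control 3.

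**Figure D2:**
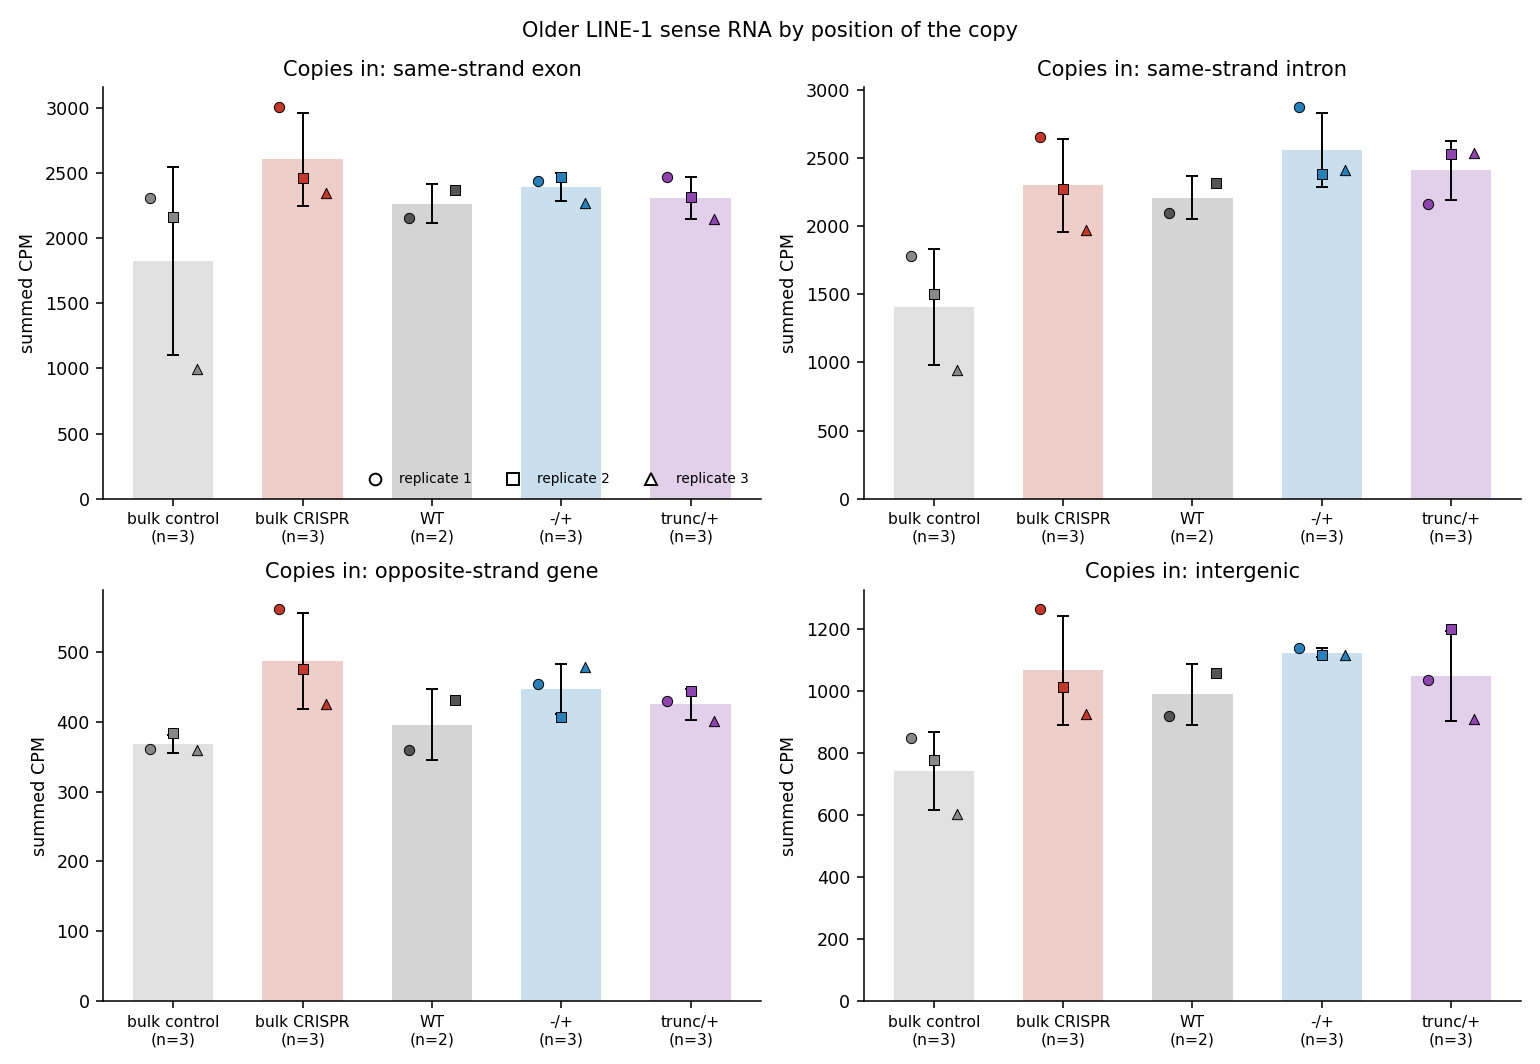
Summed sense CPM of older LINE-1 copies by position of the copy, each panel with a scale from 0, points for libraries, bars for group means and error bars for SD. In all 4 panels the 3 bulk CRISPR libraries lie above the 3 bulk controls, and the clonal groups overlap or nearly touch.

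Intronic copies took a larger share of older LINE-1 RNA in the clones than in the bulk libraries. The share was 31.1% to 33.6% in bulk controls, 34.8% to 36.5% in bulk CRISPR and 35.5% to 42.4% in clones. Exonic copies took 34.3% to 44.8% in bulk controls, 39.6% to 41.4% in bulk CRISPR and 35.3% to 40.5% in clones. The bulk and clonal libraries were not compared by a test.

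Among 8 named groups of older LINE-1 subfamilies, the bulk difference was greatest for the primate L1P elements and least for L1MC and HAL1. L1P copies (6811 copies of 21 subfamilies, median divergence from consensus 11.2%) summed to 444, 287 and 163 CPM in controls and 703, 631 and 558 CPM in bulk CRISPR. Every edited library exceeded every control, with a log2 difference of 1.19. As a share of older LINE-1 RNA, L1P made up 8.38%, 5.95% and 5.62% in controls and 9.39%, 10.1% and 9.85% in edited libraries, also without overlap. L1MA, the least diverged of the L1M elements at 15.4%, summed to 474, 439 and 230 CPM against 797, 654 and 572 CPM, a difference of 0.88 with no overlap. The groups L1MB (0.49), L1MD (0.56), L1ME (0.57) and the remaining L1M subfamilies (0.74) stood between and did not overlap either. L1MC, with 758, 770 and 554 CPM against 940, 828 and 761 CPM, differed by 0.29 and overlapped. HAL1, the most diverged of the 8 groups at 27.2%, summed to 247, 272 and 142 CPM against 309, 254 and 238 CPM, a difference of 0.32 with overlap. These group sums carry no test, and the difference between groups was not tested. TMM scaling, which lowers each by 0.23, left L1P at 0.96 and L1MC at 0.061, and all 8 kept their sign. Without bulk control 3 the differences were 0.81 for L1P, 0.55 for L1MA, 0.33 for L1ME, 0.31 each for L1MB, L1MD and the remaining L1M, 0.14 for L1MC and 0.035 for HAL1, so the groups between L1MA and L1MC were then level. The 41 copies of X9_LINE belong to none of the 8 groups. They summed to 8.36, 7.99 and 6.53 CPM in controls and 6.98, 8.84 and 10.6 CPM in bulk CRISPR, with overlap, a difference of 0.19 that turned to −0.036 under TMM scaling.

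**Figure D3:**
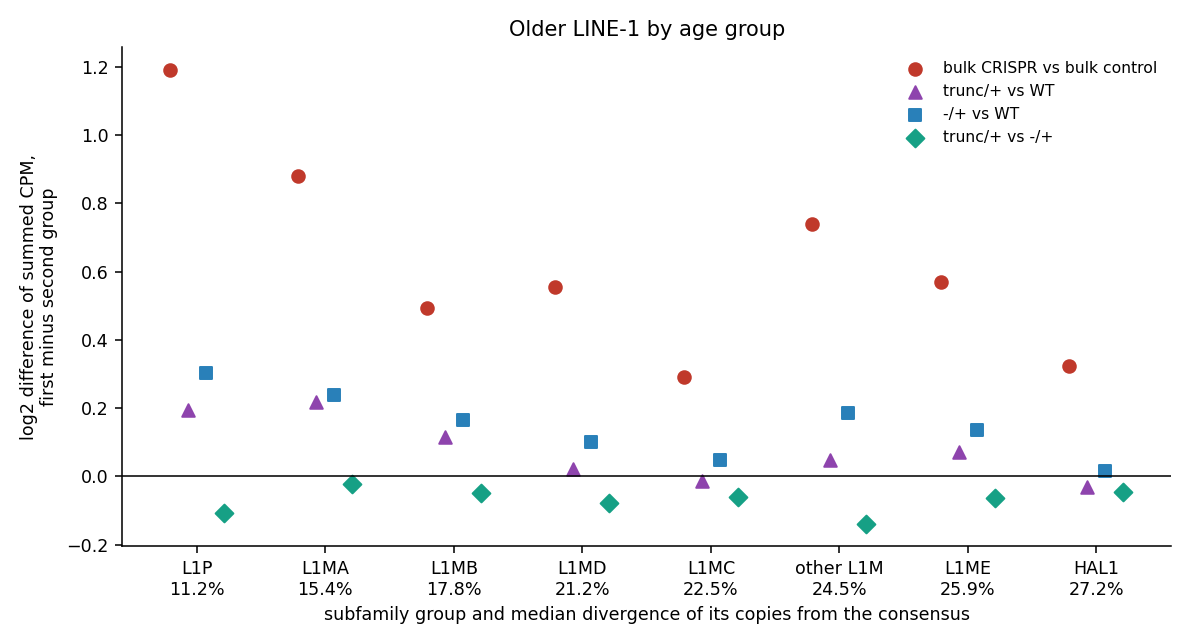
Log2 difference of summed CPM for 8 groups of older LINE-1 subfamilies, ordered by the median divergence of their copies from the consensus, with a symbol for each of the 4 comparisons (X9_LINE is not drawn). In the bulk comparison the difference is 1.19 for L1P and 0.32 for HAL1, while all values among clones lie between −0.14 and 0.30.

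The named groups did not follow divergence throughout, since the remaining L1M subfamilies (24.5% diverged) differed more than L1MB (17.8%). When copies were sorted by their own divergence instead, the difference fell from each class to the next up to 30%. Copies under 10% divergence (n = 3457) summed to 241, 152 and 89.6 CPM in bulk controls and 346, 321 and 285 CPM in bulk CRISPR, a log2 difference of 1.09. The difference was 0.83 for copies of 10% to 15%, 0.63 for 15% to 20%, 0.58 for 20% to 25% and 0.44 for 25% to 30%, the last with overlapping groups. Copies of 30% and over turned back up to 0.66, and this bin holds the MALAT1 copy, without which it stood at 0.50. Young L1, with a median divergence of 5.7%, differed by 0.90. Without bulk control 3 the order was the same at a lower level, from 0.73 under 10% to 0.18 at 25% to 30%. In all 4 positions the copies under 10% had the largest difference, between 1.08 and 1.18, and copies of 25% to 30% lay between 0.079 and 0.57.

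**Figure D4:**
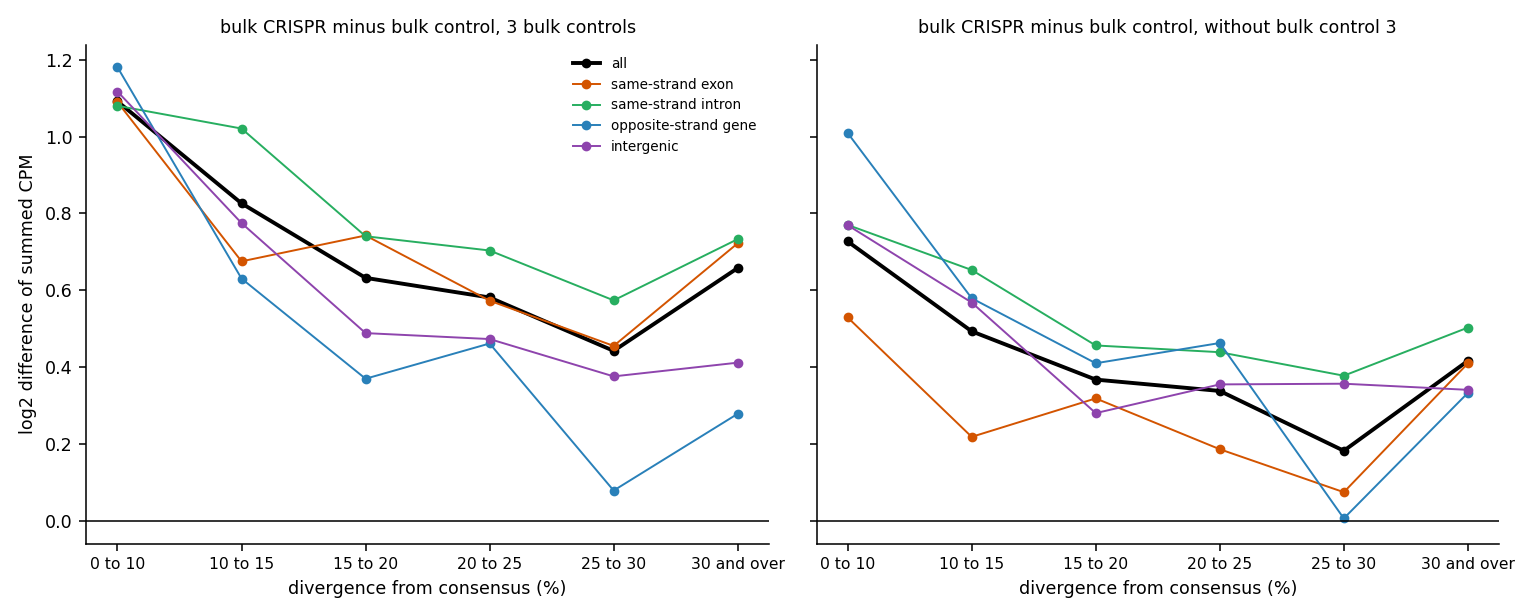
Log2 difference of summed CPM, bulk CRISPR minus bulk control, for older LINE-1 copies binned by divergence from the consensus (%), for all copies (black) and by position of the copy (colours), with all 3 bulk controls on the left and without bulk control 3 on the right. For all copies the difference falls from 1.09 under 10% to 0.44 at 25% to 30% and is 0.66 at 30% and over, and on the right it falls from 0.73 to 0.18 and is 0.42.

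Longer copies also differed more than shorter ones. Copies under 300 bases (n = 40055) differed by 0.44 and those of 300 to 1000 bases by 0.54. Copies of 1000 to 3000 bases differed by 0.98, and copies of 3000 bases and over (n = 1973) by 1.03, with 254, 225 and 97.1 CPM in controls and 450, 342 and 308 CPM in bulk CRISPR. No length class overlapped between groups. Leaving out bulk control 3 gave differences of 0.23, 0.29, 0.60 and 0.60 from the shortest class to the longest, still without overlap. Length and divergence go together, since the median copy had 799 bases in L1P and 290 in HAL1, and the 2 properties were not separated.

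No subfamily passed the test in the bulk comparison, although most stood higher in the edited libraries. Of 110 older subfamilies tested with edgeR's quasi-likelihood test, 0 had an adjusted p under 0.05, as did 0.0% of the 944 TE subfamilies tested. Before adjustment, 45 older subfamilies were higher and 0 lower at p under 0.05, where 17.3% of all TE subfamilies were higher and 2.33% lower. For 62 of the 110 all edited libraries lay above all controls and for 0 below, against 28.6% and 1.8% of all TE subfamilies. The median log2 fold change was 0.66 over older subfamilies and 0.36 over all TE subfamilies. Under TMM scaling the counts at p under 0.05 were 13 higher and 0 lower among older subfamilies, with 53 higher and 92 lower among all 944. DESeq2 called 3 of the 110 older subfamilies, beside 1.91% of all TE subfamilies, and leaving out bulk control 1 in the edgeR test gave 32, beside 18% of all. The median over older subfamilies was 0.45 without bulk control 3.

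The smallest p-values in the bulk comparison belonged to L1P subfamilies. L1PBa1 stood at 7.21, 4.21 and 4.35 CPM in controls and 15.9, 14.995 and 11.3 CPM in bulk CRISPR (log2 fold change 1.41 ± 0.31 SE, adjusted p = 0.23). L1PB3 stood at 21.7, 19.2 and 9.22 CPM against 58.2, 38.7 and 36.9 CPM (1.42 ± 0.36, adjusted p = 0.23). L1P1 stood at 20.5, 12.2 and 11.1 CPM against 29.3, 28.4 and 29.9 CPM (1.00 ± 0.29, adjusted p = 0.23). It counts as older by name only, since its median divergence of 4.6% was below the 5.7% of young L1. In each of the 3 the edited libraries lay above every control, and in L1PBa1 and L1P1 bulk controls 2 and 3 were level with each other. The 3 were picked by smallest p in this same comparison, so their separation is no separate support. None passed the threshold by edgeR. By DESeq2 with the same library sizes, L1PBa1 (adjusted p = 0.0048), L1PB3 (0.010) and L1MA4A (0.0498, log2 fold change 1.19) did.

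The 10 most abundant subfamilies showed the same range. L1M4c, the highest on average, stood at 254, 365 and 63.6 CPM in controls and 519, 298 and 269 CPM in bulk CRISPR, so bulk control 2 lay inside the edited range (log2 fold change 0.67, and 0.23 without bulk control 3). L1PB1, the only L1P member of this top group, stood at 166, 107 and 58.3 CPM in controls and 267, 243 and 208 CPM in bulk CRISPR (log2 fold change 1.12 ± 0.36, adjusted p = 0.23). L1M5, L1M4, L1ME1, L1M1, L1MB7 and L1ME4a had fold changes of 0.31 to 0.75 on the log2 scale with adjusted p from 0.23 to 0.51. They were, with bulk control 3 left out, 0.29 for L1M5, 0.45 for L1M4, 0.51 for L1ME1, 0.26 for L1M1, 0.29 for L1MB7 and 0.12 for L1ME4a. L1MC4, at 168, 168 and 176 CPM in controls and 209, 191 and 180 CPM in bulk CRISPR, was among the steadiest (0.18 ± 0.23, adjusted p = 0.65). HAL1 gave 0.21 ± 0.29, or −0.012 without bulk control 3. Both of these and L1ME4a turned negative under TMM or median-of-ratios scaling.

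Single copies were mostly too low to test. In the bulk fit 2036 of the 96515 members passed the filter on low counts, so counts over them describe those copies and not the members as a whole. Of these, 0 had an adjusted p under 0.05 by edgeR, as did 0.00713% of all 14031 TE copies tested. Before adjustment, 300 copies were higher in bulk CRISPR and 14 lower at p under 0.05, where 7.9% of all tested TE copies were higher and 4.47% lower. In 554 every edited library was above every control and in 34 below, against 17.7% and 6.42% of tested TE copies. The median log2 fold change was 0.79 for older LINE-1 copies and 0.27 for all TE copies tested. Among tested L1P copies it was 1.13, with 61 of 221 higher and 2 lower at p under 0.05, and among HAL1 copies 0.41, with 2 of 95 higher and 1 lower. DESeq2 called 34 of the 2036 older copies at the same library sizes, beside 1.32% of all TE copies, and edgeR without bulk control 1 called 69 of 2783, beside 2.16%. With bulk control 3 left out, the median over 2939 older copies was 0.49.

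The copies with the smallest p in the bulk comparison stood near 0 in every control and mostly above 1 CPM in bulk CRISPR. The L1PBa1 copy antisense to MTRFR stood at 0.150, 0.0540 and 0.128 CPM in controls and 1.92, 3.17 and 1.03 CPM in bulk CRISPR (log2 fold change 4.12 ± 0.80, adjusted p = 0.14). The intergenic L1PB2 copy stood at 0, 0.0540 and 0 CPM against 0.783, 1.51 and 1.40 CPM. That is a ratio of 75.9 from 114 and 1 counts, with an exact 95% counting interval of 13.4 to 3024 (adjusted p = 0.14). The L1ME3A copy in LINC01705, a long noncoding RNA gene, whose end is printed above, stood at 0.0375, 0 and 0.128 CPM against 1.21, 6.66 and 1.03 CPM, a ratio of 61.0 from 275 and 3 counts (interval 20.7 to 298, adjusted p = 0.14). Bulk CRISPR 2 alone supplied most of its counts.

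The other two of these copies overlapped exons of protein-coding genes. The L1MC5 copy (chr13:77066552-77067432) in MYCBP2, a ubiquitin ligase gene, stood at 0.112, 0 and 0 CPM against 1.32, 1.79 and 1.56 CPM, a ratio of 31.7 (interval 10.6 to 156, adjusted p = 0.14). The L1MA9 copy (chr10:110949049-110951722) in SHOC2, a scaffold of RAS signalling, had no count in the 3 controls and 0.569, 1.19 and 0.687 CPM in bulk CRISPR, at least 16.6-fold higher (floor of 3 counts over the group, adjusted p = 0.16). Each of the 5 copies was low in all controls and present in all edited libraries. They were picked by smallest p in this same comparison and passed the low-count filter through the edited libraries. This shared pattern therefore follows from the choice and is no separate support. Counting intervals and floors cover counting error only. Over the whole gene, MYCBP2 was 2.80, 1.88 and 2.58 FPKM in controls and 3.33, 4.90 and 4.44 in bulk CRISPR, and SHOC2 was 15.6, 10.6 and 12.3 against 16.7, 18.4 and 15.2. LINC01705 and MTRFR were not found by name in the gene tables used here.

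Most of the highest copies did not separate the bulk groups. The L1M4c copy in MALAT1, a nuclear long noncoding RNA, stood at 94.4, 241 and 28.2 CPM in bulk controls and 369, 208 and 150 CPM in bulk CRISPR. Bulk control 2 lay above 2 of the 3 edited libraries, and the log2 fold change was 1.00 ± 0.75 (adjusted p = 0.59), or 0.53 without bulk control 3. MALAT1 as a gene stood at 93.2, 112 and 8.55 FPKM in controls and 214, 170 and 126 in bulk CRISPR, lowest in the same library as the copy. In clones these measures parted: the copy held 124 to 211 CPM in all 8, while the gene ranged from 14.7 to 171 FPKM.

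The L1M4c copy in the HSP90AA1 coding exon stood at 145, 109 and 28.05 CPM in bulk controls and 125, 70.9 and 100 CPM in bulk CRISPR, with the controls on both sides of the edited libraries (log2 fold change 0.073 ± 0.63, adjusted p = 0.97). Its sign turned to −0.36 without bulk control 3. The gene stood at 1345, 2128 and 1497 FPKM in controls and 1156, 783 and 1052 in bulk CRISPR. In bulk control 3 the copy was thus low and the gene was not. The intergenic L1M1 copy stood at 77.0, 71.9 and 27.2 CPM against 90.2, 59.9 and 64.5 CPM, again overlapping (0.28 ± 0.56, adjusted p = 0.85, and −0.058 without bulk control 3). Its level split the clones in a way that cut across genotype: 53.4 and 122 CPM in WT, at 41.7, 121 and 109 in -/+ and at 34.3, 117 and 25.7 in trunc/+.

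The other 7 copies make up the 10 highest, all in exons of genes. Copies in the 3′ UTR of DENR, a translation factor, and in an exon of MFSD12, a lysosomal transporter, had bulk log2 fold changes of 0.66 ± 0.49 and 0.55 ± 0.49. For ACTN4, an actin crosslinker, COA7, a mitochondrial assembly factor, and ZNF146, a zinc finger protein, the 3′ UTR copies gave 0.48 ± 0.66, 0.36 ± 0.52 and 0.16 ± 0.49. Copies in MTAP, a methionine salvage enzyme, and SMN2, a splicing assembly factor, gave −0.048 ± 0.52 and −0.20 ± 0.51. Adjusted p ran from 0.59 to 0.98 over the 7. The log2 fold changes without bulk control 3 were 0.56 for the DENR copy, 0.31 for MFSD12, −0.028 for ACTN4, 0.0021 for COA7, −0.081 for ZNF146, −0.32 for MTAP and −0.53 for SMN2. Only 37.2% of counts on the SMN2 copy were uniquely placed, since SMN1 is a near-identical gene, so its level is uncertain. The ACTN4 copy stood at 31.0, 29.4 and 3.07 CPM in bulk controls while the gene was 184, 97.1 and 178 FPKM, another copy that was low in bulk control 3 without its gene.

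**Figure D5:**
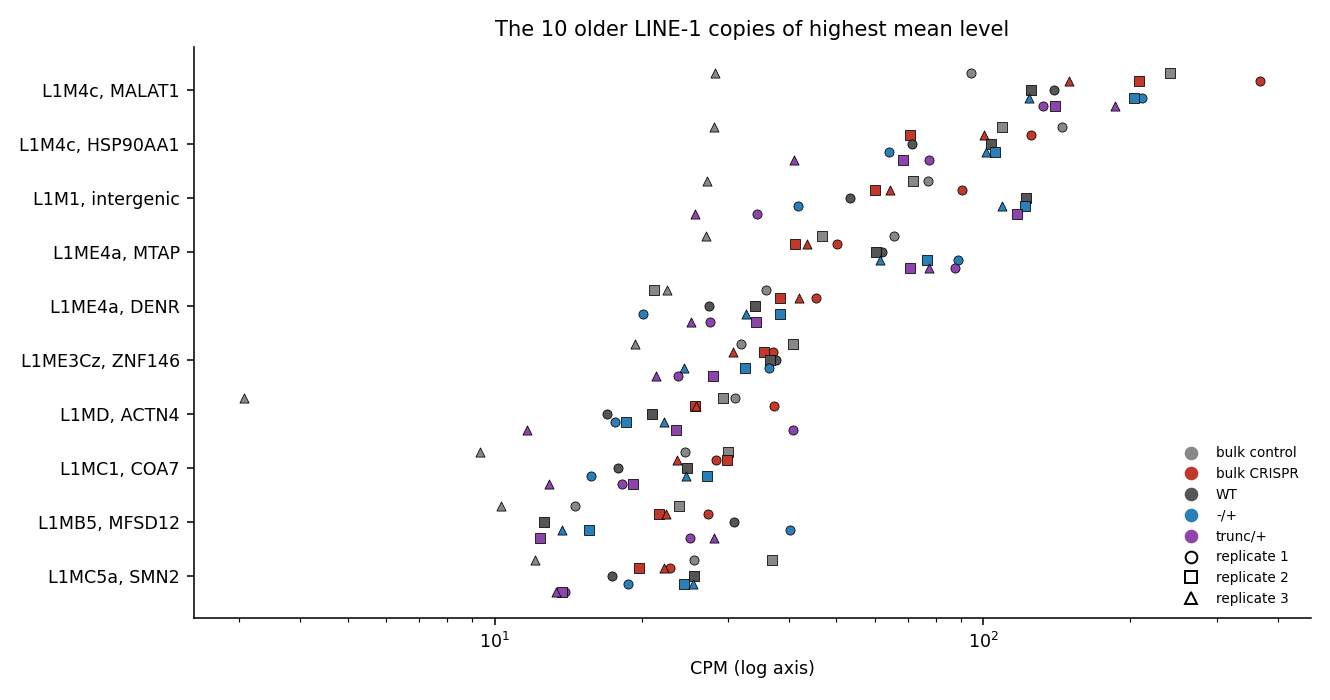
CPM (log axis) of the 10 older LINE-1 copies of highest mean level in all 14 libraries, coloured by group and shaped by replicate number. The groups overlap for most copies, bulk control 3 (grey triangle) is the lowest bulk library in all but the DENR copy, and the intergenic L1M1 copy runs from 25.7 to 122 CPM among clones.

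In clones, older LINE-1 sense RNA was nearly level. The sum was 5534 and 6176 CPM in WT, at 6909, 6375 and 6279 CPM in -/+ and at 6092, 6481 and 5992 CPM in trunc/+. The -/+ libraries were all above WT, by a log2 difference of 0.16, while trunc/+ overlapped WT with 0.081. The means were 5855 ± 454 CPM (SD, n = 2), 6521 ± 340 (n = 3) and 6188 ± 259 (n = 3). Exact permutation tests gave p = 0.1 for -/+ against WT (adjusted p = 0.2), 0.5 for trunc/+ against WT (adjusted p = 0.5) and 0.3 for trunc/+ against -/+ (difference −0.075, adjusted p = 0.4). With 3 clones against 2, 0.1 is again the smallest possible p. Both comparisons with WT share its 2 clones.

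By position, -/+ lay above WT without overlap for intergenic copies (1139, 1114 and 1116 CPM against 919 and 1057 CPM, log2 difference 0.19, exact permutation p = 0.1, adjusted p = 0.2) and for intronic copies (2875, 2386 and 2415 against 2097 and 2319 CPM, 0.21, p = 0.2, adjusted p = 0.4). Exonic copies differed by 0.081 and overlapped. For trunc/+ against WT, all 4 positions overlapped, with differences from 0.027 for exons to 0.12 for introns. No position passed a test.

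By age, -/+ differed most from WT for L1P, with 719, 668 and 594 CPM against 492 and 580 CPM (log2 difference 0.30, no overlap), and L1MA followed at 0.24. HAL1 differed by 0.014, or by −0.071 under TMM scaling. L1MB (0.17) and L1ME (0.13) also lay above WT without overlap in -/+. In trunc/+ the values were 0.20 for L1P and −0.031 for HAL1, both with overlap, while L1MA (0.22) and L1MB (0.12) lay above WT without overlap. Copies of 3000 bases and over stood at 301 and 409 CPM in WT, at 451, 476 and 420 CPM in -/+ and at 336, 451 and 316 CPM in trunc/+. They differed by 0.35 for -/+ against WT, without overlap, and by −0.30 for trunc/+ against -/+. The ratio of older to young L1 overlapped in all 3 clonal comparisons, with differences of −0.075 to −0.024 (exact permutation p = 0.7 to 0.9).

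No subfamily or copy passed edgeR's test in a clonal comparison, as was true of 0.0% of the 975 TE subfamilies and 21634 TE copies tested there. Among 110 older subfamilies, 6 were higher in -/+ than in WT before adjustment (p under 0.05) and 0 lower, where 1.64% of all subfamilies were higher and 0.513% lower. In 35 of the 110 all -/+ libraries were above both WT libraries and in 2 below, against 13.6% and 4.92% of all subfamilies. For trunc/+ against WT 1 was higher and 0 lower, against 3.08% and 0.718% of all subfamilies. For trunc/+ against -/+ 0 were higher and 4 lower, where all subfamilies gave 2.36% and 1.95%. DESeq2 called 0 older subfamilies in each, beside 0.0% of all for -/+ against WT and 0.103% for the other two.

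Of 4281 older copies tested in clones, 131 were higher and 28 lower at p under 0.05 in -/+ against WT (1.83% and 0.795% of all TE copies). In trunc/+ against WT 134 were higher and 66 lower (2.61% and 1.47% of all), and in trunc/+ against -/+ 82 and 102 (1.91% and 1.82%). Median log2 fold changes were 0.21, 0.12 and −0.12, beside 0.10, 0.07 and −0.04 for all TE copies. DESeq2 called 1 older copy in trunc/+ against WT, beside 0.0231% of all TE copies, and 0 in the other two comparisons, beside 0.0%. In -/+ the median ran from 0.070 in exons to 0.33 between genes, and in trunc/+ from 0.022 in exons to 0.19 in introns.

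Among subfamilies, L1MA1, L1PB1 and L1M4c had the smallest p for -/+ against WT. L1MA1 stood at 30.02 and 28.3 CPM in WT, at 40.4, 39.2 and 37.3 in -/+ and at 37.4, 38.1 and 36.6 in trunc/+. Both edited groups lay above WT, with log2 fold changes of 0.42 ± 0.14 and 0.36 ± 0.14 (adjusted p = 0.99 and 0.95). L1MA1 was picked by smallest p in both comparisons, so this separation is no separate support. L1PB1 stood at 184 and 220 CPM in WT and 287, 258 and 222 CPM in -/+ (0.34 ± 0.13, adjusted p = 0.99). L1M4c stood at 223 and 243 CPM in WT and 295, 324 and 246 CPM in -/+ (0.31 ± 0.12, adjusted p = 0.99). For trunc/+ against WT the other two of smallest p were L1MB5 (0.33 ± 0.15) and L1MA10 (0.68 ± 0.32), both with adjusted p of 0.95. L1M4c, L1MCb and L1M3b led trunc/+ against -/+ with −0.30 ± 0.11, −0.52 ± 0.17 and −0.68 ± 0.23 (adjusted p = 0.99).

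The copy of smallest p for trunc/+ against WT was an L1ME4a fragment of 158 bases in an intron of BHLHE40, a transcriptional repressor of the circadian and stress responses (chr3:4982468-4982625, plus strand). It had no count in either WT clone and 0.0403, 0.107 and 0.209 CPM in -/+, and it stood at 0.545, 1.87 and 2.10 CPM in trunc/+, at least 29.0-fold above WT (edgeR adjusted p = 0.88). All 3 trunc/+ libraries were above all others among clones. This copy and the clonal copies named after it were picked by smallest p in these same comparisons. Separation of the compared groups therefore follows from the choice and is no separate support. The BHLHE40 copy also passed the low-count filter through the trunc/+ libraries. BHLHE40 as a gene stood at 14.8 and 8.49 FPKM in WT, at 35.7, 10.4 and 9.79 in -/+ and at 32.7, 23.2 and 35.4 in trunc/+. In the bulk libraries the copy was at 0.825, 0 and 0 CPM in controls and 0.356, 0.256 and 0.312 CPM in bulk CRISPR, below the filter there. DESeq2, run on the same counts, called this copy in trunc/+ against WT.

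A pair of 3′ UTR copies had counts in every clone. The L1ME1 copy in the 3′ UTR of DBNL, an actin-binding adaptor, stood at 2.45 and 1.99 CPM in WT, at 2.98, 3.57 and 3.16 in -/+ and at 6.76, 6.28 and 5.30 in trunc/+ (chr7:44068478-44069445, plus strand). The 3 clonal groups did not overlap (trunc/+ against WT 1.46 ± 0.35, adjusted p = 1.0). In bulk it stood at 9.15, 5.02 and 0.512 CPM in controls and 19.1, 15.8 and 12.3 CPM in bulk CRISPR (1.67 ± 0.71, adjusted p = 0.36), also without overlap. DBNL itself ranged from 12.8 to 18.1 FPKM over the 14 libraries. The gene stood at 14.4 and 13.1 FPKM in WT and 15.5, 16.8 and 16.8 in trunc/+, above WT without overlap. That difference was 0.24 ± 0.13 on the log2(FPKM + 1) scale (limma adjusted p = 0.69). The L1ME3 copy in the 3′ UTR of TRIOBP, an actin-bundling protein, stood at 1.52 and 1.46 CPM in WT, at 2.72, 1.92 and 3.50 in -/+ and at 5.89, 5.37 and 3.09 in trunc/+ (1.69 ± 0.44 for trunc/+ against WT, adjusted p = 1.0). TRIOBP as a gene stood at 25.9 and 21.0 FPKM in WT, at 30.8, 19.1 and 35.6 in -/+ and at 47.6, 51.7 and 27.999 in trunc/+, where it too was above WT without overlap (0.79 ± 0.33 on the log2(FPKM + 1) scale, limma adjusted p = 0.66). An L1PB3 copy on chromosome 15 went the other way, at 0.758 and 1.33 CPM in WT and 0.121, 0.108 and 0.213 in trunc/+.

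For -/+ against WT, an intergenic L1MA4 copy of 4772 bases stood at 1.88 and 1.40 CPM in WT, at 4.67, 3.84 and 3.73 in -/+ and at 5.09, 3.23 and 3.63 in trunc/+. Every edited clone was above both WT clones (log2 fold change 1.32 ± 0.39 for -/+ and 1.28 ± 0.38 for trunc/+, adjusted p = 1.0 in both). In bulk it stood at 1.27, 1.67 and 0 CPM in controls and 5.48, 3.01 and 1.72 CPM in bulk CRISPR. An L1M4a1 copy in an intron of RAB22A, a vesicle traffic GTPase, stood at 0 and 0.0310 CPM in WT and 0.564, 0.587 and 0.544 in -/+, a ratio of 33.8 from 38 and 1 counts (interval 5.70 to 1368). An L1MA1 copy within the noncoding gene HCG17 stood at 0.321 and 0.465 CPM in WT and 2.17, 0.854 and 1.84 in -/+ (2.03 ± 0.59, adjusted p = 1.0).

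A pair of the named copies rest on shared reads. An L1PREC2 copy of 4597 bases on chromosome 1 had 16.1% of its counts uniquely placed, and stood at 0 and 0.0592 CPM in WT, 0.937 to 1.40 in -/+ and 0.599 to 1.12 in trunc/+. A HAL1 copy of 189 bases antisense to PSMA8 had 1.34% uniquely placed, and stood at 6.81 and 0.226 CPM in WT, 0 in the 3 -/+ clones and 0.631, 3.92 and 3.28 CPM in trunc/+. Where such reads came from is uncertain. For trunc/+ against -/+, copies in introns of TBC1D8 (L1MA6) and DCBLD2 (L1PB3) and an intergenic L1M3 copy on chromosome 20 had log2 fold changes of 2.62 ± 0.65, 3.69 ± 0.93 and 2.74 ± 0.70 (adjusted p = 1.0). The first 2 of them stood highest in different trunc/+ clones, the third and the second.

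Genes known to restrain LINE-1 or to handle its RNA were read from the gene tables on a list of 32. Limma on log2(FPKM + 1) called 0 of the 31 tested in bulk, beside 0.347% of 12114 genes, and 0 of 32 in each clonal comparison, beside 0.00775%, 0.00775% and 0.0% of 12904 genes for trunc/+ against WT, -/+ against WT and trunc/+ against -/+. In bulk, at p under 0.05, APOBEC3C, a cytidine deaminase, was higher, and ZC3H18, EXOSC3, HNRNPM and HNRNPC were lower. These were 1 and 4 of 31, where 14% of genes were higher and 6.93% lower. ZC3H18 was itself the edited gene. EXOSC3, a core exosome subunit, stood at 61.4, 95.9 and 126 FPKM in controls and 49.5, 41.2 and 45.5 in bulk CRISPR (difference −0.99 on the log2(FPKM + 1) scale, adjusted p = 0.15). HNRNPC, which binds nascent RNA and shields repeats in introns from splicing, stood at 327, 403 and 379 FPKM against 237, 215 and 247 (−0.66, adjusted p = 0.17). In both genes all controls were above all edited libraries.

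In trunc/+ against WT, 0 of 32 were higher and 7 lower at p under 0.05, where 3.29% of genes were higher and 4.3% lower. They were UHRF1, a DNA methylation cofactor, MTREX, the exosome helicase, ZC3H18, the edited gene, EXOSC3, and the RNA binders SAFB, HNRNPC and HNRNPU. MTREX stood at 57.5 and 57.9 FPKM in WT and 38.0, 46.9 and 44.1 in trunc/+ (−0.42, adjusted p = 0.61). In trunc/+ against -/+, 0 were higher and 6 lower (3.12% and 3.16% of genes), and in -/+ against WT 0 and 0 (0.713% and 1.11%). The HUSH subunits TASOR, MPHOSPH8 and PPHLN1, with MORC2, which act together to silence LINE-1 chromatin, were at p above 0.05 in every comparison. TASOR stood at 21.8 and 20.7 FPKM in WT, 19.9 to 21.9 in -/+ and 19.5 to 22.8 in trunc/+.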

How the data were processed

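Counts came from 14 stranded, polyadenylated RNA-seq libraries of A375 cells. Per the labels and the study's methods, the authors trimmed reads with cutadapt 4.6 and counted TE copies with SQuIRE on hg38 (version not given in the sources used here). They deposited, per copy and transcript strand, estimated counts in which expectation maximization shares out multi-mapped reads, counts of uniquely mapped fragments, and the aligned fragments of the library. The deposited gene values are FPKM per the file headers, and no source used here names the tool behind them.

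Here, sense estimated counts were scaled to 1000000 aligned fragments (CPM) and summed over all members. Sharing out multi-mapped reads can move counts between near-identical copies, so unique counts were an alternative. For sums and ratios, log2 values per library entered two-sided exact permutation tests, with Benjamini-Hochberg adjustment over 4 comparisons. Subfamilies and copies were tested in 1 fit over all TEs with edgeR 4.0.16 (quasi-likelihood, rounded counts, minimum count 10, aligned fragments as library size), and genes with limma 3.58.1 on log2(FPKM + 1), all Benjamini-Hochberg adjusted. DESeq2 1.42.0, TMM, no filter, a replicate block and leaving out each library were alternatives. For group and length sums, leaving out bulk control 3 was chosen after seeing the data. Both fits were tested on simulated data. Positions came from GENCODE 44 on hg38. A copy overlapping any same-strand exon counted as exonic. Named copies were the 10 of highest mean CPM and the 5 of smallest p in each comparison. Named subfamilies were the 10 highest and the 3 of smallest p. All such smallest-p copies and subfamilies were uncalled. Members and lists were chosen with earlier results of these data known. The divergence and length classes and the printed sequences were chosen after the values were seen. The sequences of some named copies are not reported here. Replicates are counted as separate samples by label. No 2 libraries of a group agreed within sampling noise of the estimated counts (chi-square per degree of freedom 4.50 to 9.88). This bears only on whether 1 library was sequenced again, and cannot show that the cells or RNA were independent.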

Additional observations from a re-analysis of the deposited data

How the results depend on the processing

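Of 248 alternative values for the sums and ratios, 234 kept their direction, among them all 50 for the older LINE-1 sum and all 72 that did not leave out a library. The 14 that turned sign were all leave-one-out values in clones. As ranges over the libraries left out, older to young L1 ran from −0.16 to 0.0024 for trunc/+ against WT, from −0.052 to 0.017 for -/+ against WT and from −0.14 to 0.026 for trunc/+ against -/+. The sense to antisense ratio ran from −0.061 to 0.037, from −0.000172 to 0.074 and from −0.090 to 0.0074 in the same order. For trunc/+ against WT, exonic copies ran from −0.040 to 0.095, opposite-strand copies from −0.025 to 0.24 and intergenic copies from −0.023 to 0.18. For trunc/+ against -/+, intronic copies ran from −0.13 to 0.0012. These turns came from leaving out trunc/+ 1, 2 or 3, WT 1, or -/+ 1 or 2.

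Counts of calls by edgeR, 0 throughout as reported, depended on the tool and on single libraries. In bulk, older subfamilies called were 3 and 2 by DESeq2 (aligned sizes; median of ratios, L1PB3 and L1PBa1) and 0 to 32 with 1 library left out, the 32 without bulk control 1. Bulk copies called were 34 and 33 by DESeq2, 2 without the filter (the MYCBP2 and LINC01705 copies) and 0 to 69 with 1 library left out, the 69 without bulk control 1. For trunc/+ against WT they were 1 by DESeq2 with either size (the BHLHE40 copy), 13 without the filter and 0 to 3 leaving out a library. For -/+ against WT they were 8 and 0 to 3, the 3 being L1MD1 copies on chromosome 1 without WT 1, named after their values were seen, and for trunc/+ against -/+ 4 and 0 to 1. The 32 control genes gave 0 to 1 in bulk, the 1 without bulk control 1 or 2. Causes were not tested.

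Replicate numbers did not pair libraries (same-number correlations of deviations −0.27 to 0.25). With the replicate block, 3 older subfamilies (L1PB, L1PB3 and L1PBa1) and 1 copy (in LINC01705) were called in bulk, and the block changed no other call.

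Among named bulk fold changes, TMM and DESeq2 median-of-ratios scaling turned the HSP90AA1 copy (−0.095, −0.077), the ZNF146 copy (−0.030, −0.025), and the subfamilies L1ME4a (−0.071, −0.070), L1MC4 (−0.25, −0.24) and HAL1 (−0.19, −0.19), and the X9_LINE sum (−0.036 under both). Leaving out 1 library moved the HSP90AA1 copy between −0.36 and 0.53, the L1M1 copy between −0.058 and 0.53, the MTAP copy between −0.32 and 0.29, the ZNF146 copy between −0.081 and 0.42, the ACTN4 copy between −0.028 and 0.87, the SMN2 copy between −0.53 and 0.20 and HAL1 between −0.012 and 0.44. The block gave 0.036 for the MTAP copy, and unique counts 0.21 for the SMN2 copy. Depth limits single copies, since 88.9% of members never reached 10 counts.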

Other observations

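The intergenic L1M1 element on chromosome 3 (5739 bases, 16.1% diverged), the longest of the 10 highest copies, was at 117 to 122 CPM in WT 2, -/+ 2 and trunc/+ 2 and 109 CPM in -/+ 3, and at 25.7 to 53.4 CPM in the other 4 clones. In these same clones MALAT1 was 14.7, 24.1, 23.4 and 20.1 FPKM, against 117 to 171 FPKM in WT 1, -/+ 1 and trunc/+ 1 and 38.4 FPKM in trunc/+ 3. The MALAT1 L1M4c copy did not follow the gene there, at 125, 203, 140 and 124 CPM in the first 4 and 139, 211, 132 and 186 CPM in the others. The pattern was noticed after the values were seen and was not tested.

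Coding exons of canonical transcripts held 33 copies annotated as older LINE-1, and the HSP90AA1 copy supplied a large part of their sum in each bulk library. Whether these stretches derive from LINE-1 insertions was not tested. The 33 copies summed to 192, 189 and 57.2 CPM in bulk controls and 185, 117 and 149 CPM in bulk CRISPR. They were the canonical exon class in which the bulk difference turned negative without bulk control 3 (0.21 with it and −0.36 without). The HSP90AA1 copy alone had log2 fold changes of 0.073 and −0.36, and the 3′ UTR copies as a class gave 0.61 and 0.25.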
